A study of Oreochromis niloticus with 21 samples.

Results

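Kidney RNA of tilapia (Oreochromis niloticus, a cichlid fish of warm rivers and lakes) was compared between 28, 18 and 10 °C, with 1 sequencing library at each temperature. A gene was taken as present in kidney when it reached an RPKM of 5 (reads scaled by gene length and by the depth of the library) in at least 1 of the 3 kidney libraries, which 4956 of the 17098 listed genes did. The fish were 6 months old and were held for 12 h at the cold temperature before they were killed, per the labels. The label of the 28 °C library gives the same protocol, and no other treatment or genotype is named for any group. The whole series holds 21 libraries, from 7 tissues at the same 3 temperatures: kidney, spleen, liver, gill, heart, brain and muscle. How many fish were used, and whether 1 fish gave several tissues, is not stated in the labels. With 1 library per temperature, no difference between kidney libraries has a replicate check.

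The kidney of a bony fish does more than make urine. Nephrons filter the blood and reclaim salts and solutes, and the tissue between them is the main blood-forming organ, which makes red cells, granulocytes and lymphocytes. The front of the organ also holds the interrenal and chromaffin cells, which secrete cortisol and catecholamines, the hormones of the stress response in fish. A bulk kidney library mixes all of these, so fewer cells of a type and less RNA per cell cannot be told apart in any value below. The genes carry Ensembl identifiers only, and 0 of the identifiers could be paired with a symbol. Genes are therefore named by identifier, at most 2 higher and 2 lower in each set, and marker lists for tubule, blood or interrenal cells could not be read.

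The tissue label could be checked through likeness alone. The 3 kidney libraries were closest to each other, by Spearman's rho over all genes (genes are not replicates). It was 0.888 for the pair at 28 and 18 °C, 0.871 for that at 28 and 10 °C, and 0.848 for the cold pair. The closest library of any other tissue reached 0.642 for kidney at 28 °C, 0.637 at 18 °C and 0.66 at 10 °C. Depth differed: whole reads recovered from the deposited values summed to 905138, 557584 and 3041382 at 28, 18 and 10 °C, and the median detected gene had 15, 10 and 40 reads there. Of the 4956 kidney genes, 2528 passed the RPKM minimum in all 3 libraries and 1371 in 1 library only. Of the latter, 508 passed at 28 °C alone, 349 at 18 °C alone and 514 at 10 °C alone. For a gene that did not pass in all 3, that choice partly sets the direction of its differences. The lowest gene inside the minimum reached 5.001 and the highest outside it 4.998, with 418 genes between 5 and 5.5 and 418 between 4.5 and 5.

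More kidney genes were lower than higher in the cold at either temperature. At 18 °C, 340 genes were at least 2-fold higher than at 28 °C (6.86%) and 810 were at least 2-fold lower (16.3%), on log2(RPKM + 1), a scale that understates the change of low genes. At 10 °C, 375 genes were higher than at 28 °C (7.57%) and 656 lower (13.2%). Between the cold libraries, 740 genes were higher at 10 than at 18 °C (14.9%) and 520 lower (10.5%). At 4-fold the excess of lower genes was wider at 18 °C, with 11 genes higher and 137 lower, than at 10 °C, with 51 higher and 118 lower. The median difference over all 4956 genes was -0.15 at 18 °C and -0.06 at 10 °C on the log2 scale.

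The size of that excess depended on scaling. Lower genes made up 70.4% of the genes past 2-fold at 18 °C, and 55.6% after both libraries were centred on their median gene, 61.3% with a trimmed-mean library size (TMM) and 55.7% with the plain total of reads. At 10 °C the share was 63.6% as deposited, 57.1% after centring and 58.2% with TMM. The plain total of reads gave 87% there and put the median gene at -0.42. A single gene, described further on, held 31.6% of that total at 10 °C and 0.154% at 28 °C, and its part in the 87% was not tested. Lower genes outnumbered higher ones under each of these scalings.

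**Figure D1:**
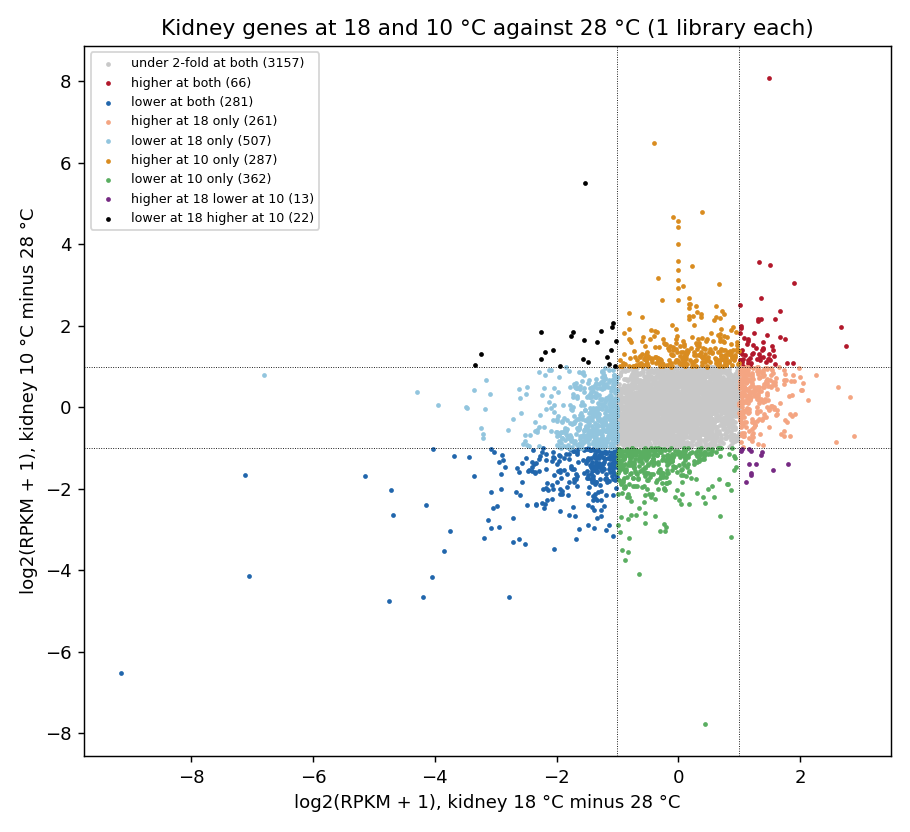
Difference in log2(RPKM + 1) from 28 °C at 18 °C (horizontal axis) and at 10 °C (vertical axis) for the 4956 kidney genes, 1 point per gene, coloured by class, with dotted lines at 2-fold. Both axes use the same 28 °C library. The lower left field (281 genes) holds more genes than the upper right one (66).

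A small part of the changes was shared by both cold temperatures. In all, 66 genes (1.33%) were at least 2-fold higher at both 18 and 10 °C, and 281 (5.67%) were lower at both. Both comparisons use the same 28 °C library, so a gene that is high or low in that library alone enters both, and the overlap is a description. The comparison of 10 with 18 °C does not use it: of the 281 shared lower genes, 29 were at least 2-fold higher and 17 at least 2-fold lower at 10 than at 18 °C. These genes were chosen for being lower in both cold libraries. The 2 counts therefore cannot tell a shared change from a high value in the 28 °C library alone. Only 13 genes were higher at 18 °C and lower at 10 °C, and 22 the opposite.

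ENSONIG00000012795 led the genes lower at both temperatures. Its RPKM in kidney was 654.1 at 28 °C, 0.148 at 18 °C and 6.08 at 10 °C, from 6380, 1 and 151 reads. The level at 10 °C was 108-fold below that at 28 °C (95% counting interval 91.5 to 127), and at 18 °C it was 4417-fold below on a single read (792 to 174474). Its level also ranged widely elsewhere, from 0.3 in spleen at 28 °C to 476.3 in muscle at 10 °C.

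ENSONIG00000021796 was the second gene lower at both. Its RPKM was 14516 at 28 °C, 797.1 at 18 °C and 574.1 at 10 °C, which is 18.2-fold lower (15.9 to 21) and 25.3-fold lower (23.2 to 27.6) than at 28 °C. Its implied length is 135 bp, and it was lower in the cold in liver too, at 10052 at 28 °C against 985.4 at 18 °C and 1180 at 10 °C. Muscle, at 25383, 1692 and 412.2 in the same order, and heart, at 388.1, 222 and 231.2, were also lower in the cold. Gill and spleen were higher in the cold, with 174.8, 2046 and 2043 in gill and 1037, 12949 and 2570 in spleen. Brain had 703.4, 148 and 1335.

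By the smaller of their 2 differences, the first 2 genes higher at both temperatures were of low level; ENSONIG00000002856, far higher at 10 °C, is in the same class and is described further on. ENSONIG00000016924 had an RPKM of 0.747 at 28 °C, 5.55 at 18 °C and 13.55 at 10 °C, from 7, 36 and 323 reads, which is 7.43-fold (3.26 to 19.8) and 18.1-fold (8.7 to 45.4) above 28 °C. Liver showed the same order of warm and cold for it, with 30.7 at 28 °C, 130.2 at 18 °C and 103.1 at 10 °C. Gill went the other way, with 8.47, 4.14 and 4.09, and the remaining tissues stayed at 2.03 or below. ENSONIG00000006195 had 2.1 at 28 °C, 9.47 at 18 °C and 8.94 at 10 °C, 4.5-fold (2.57 to 8.3) and 4.25-fold (2.58 to 7.46) above 28 °C. Neither of these 2 genes met the RPKM minimum at 28 °C, so that choice partly set their being higher in the cold. On log2(RPKM + 1), which shrinks the change of such low genes, 0 of the 66 shared higher genes were 4-fold higher at both temperatures and 35 of the 281 shared lower genes were 4-fold lower at both.

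Changes at 18 °C alone comprised 507 genes lower (10.2%) and 261 higher (5.27%) at 18 °C and under 2-fold from 28 °C either way at 10 °C. Many of these sat near the threshold at the other temperature: with a difference under 0.5 on the log2 scale at 10 °C, 257 lower and 140 higher genes remained. ENSONIG00000020875, which held more reads than any other gene in kidney at 28 °C (3.35%), was the leading well-covered example. Its RPKM was 2489 at 28 °C, 160.7 at 18 °C and 2609 at 10 °C, so the 18 °C library was 15.5-fold below the 28 °C one (14.7 to 16.4) while the 10 °C library was 1.05-fold above it (1.03 to 1.06). ENSONIG00000011409, of 261 bp, had 14, 0 and 47 reads at 28, 18 and 10 °C, and an RPKM of 18.5, 0 and 24.4. By its 95% counting interval it was at least 2.3-fold lower at 18 than at 28 °C.

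The 261 genes higher at 18 °C alone had a median RPKM of 5.18 at 28 °C, 14.2 at 18 °C and 6.49 at 10 °C. ENSONIG00000019205 had an RPKM of 2 at 28 °C, 11.3 at 18 °C and 3.06 at 10 °C, from 9, 35 and 35 reads, and ENSONIG00000001884 had 4.03, 19.3 and 5.74, from 43, 143 and 156 reads. The 18 °C level was 5.62-fold (2.65 to 13.3) above 28 °C in the first and 4.8-fold (3.39 to 6.92) in the second. The first met the RPKM minimum at 18 °C alone and the second at 18 and 10 °C. That choice partly set their being higher at 18 °C. The kidney at 18 °C was also the shallowest library: 31 genes with at least 30 reads in another kidney library had 0 reads there, against 8 at 28 °C and 1 at 10 °C. The part of depth in the 18 °C class was not tested; with at least 20 reads required in the higher library, 297 genes were higher and 677 lower than at 28 °C.

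At 10 °C alone, 287 genes were higher (5.79%) and 362 lower (7.3%), of which 157 and 179 differed by under 0.5 at 18 °C. ENSONIG00000021754, of 100 bp, led the lower genes, with an RPKM of 217.3 at 28 °C, 293.9 at 18 °C and 0 at 10 °C, from 63, 59 and 0 reads. By its 95% counting interval it was at least 42.2-fold lower at 10 than at 28 °C. ENSONIG00000010953, with 79.3, 64.2 and 8.8 in the same order, was 9.01-fold lower at 10 °C than at 28 °C (7.39 to 11). Its level was also lower in the cold in gill, at 112.9 at 28 °C, 8.38 at 18 °C and 9.52 at 10 °C. Spleen, at 133.3, 30.8 and 31.5 in the same order, and heart, at 15.6, 5.39 and 5.88, were lower too. Liver was higher at 18 °C, with 3.36, 35.5 and 3.06 from 7, 62 and 5 reads. Brain had 3.06, 4.93 and 3.73, and muscle 0, 0.809 and 0.

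The 2 genes that led the class higher at 10 °C alone are both far higher in heart than in any other tissue here. ENSONIG00000020926 had an RPKM of 0.321 at 28 °C, 0 at 18 °C and 117.8 at 10 °C in kidney, from 1, 0 and 934 reads, and 3205 to 8198 in the heart libraries. ENSONIG00000017159 had 0, 0.306 and 26.85 in kidney, from 0, 1 and 323 reads, and 918.9 to 1187 in heart. Their level in kidney at 10 °C was a few percent of that in heart. They met the RPKM minimum in kidney at 10 °C alone.

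Genes restricted to heart, chosen without kidney, were higher together in kidney at 10 °C. The list takes genes with an RPKM of at least 50 in every heart library and at least 10-fold above the highest library of brain, gill, liver, muscle and spleen, and holds 14 genes. Their summed RPKM in kidney was 27.2 at 28 °C, 26.4 at 18 °C and 339.7 at 10 °C. All 14 were detected at 10 °C, against 10 at 28 °C and 11 at 18 °C, and 13 of the 14 were at least 2-fold higher at 10 than at 28 °C. Each of the 14 stood at 2.1 to 3.68% of its level in heart at 10 °C, and the middle value was 2.98%, whereas at 28 °C the range was 0 to 3.07% around a median of 0.186%. Outside heart and kidney, the list summed to 260.7 in spleen and 487.5 in muscle at 10 °C, and to between 8.3 and 74.8 in the remaining 13 libraries.

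**Figure D2:**
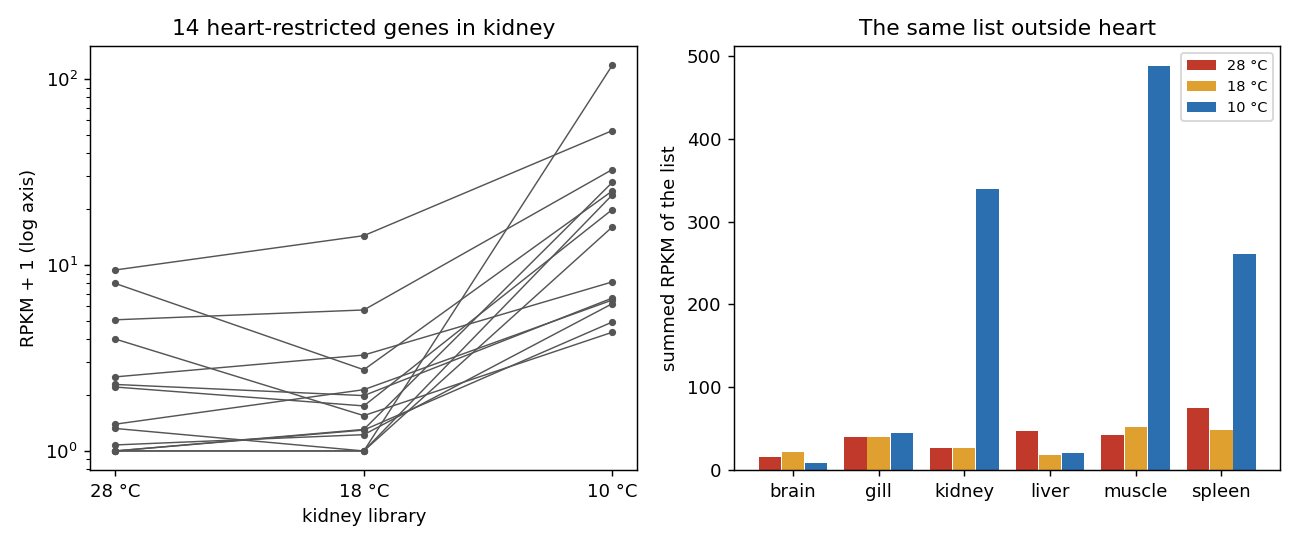
Left, RPKM + 1 (log axis) of the 14 heart-restricted genes in the 3 kidney libraries, 1 line per gene. Right, summed RPKM of the same list in the 18 libraries outside heart, 1 bar per library. Kidney, muscle and spleen at 10 °C stand above the other libraries, at 339.7, 487.5 and 260.7.

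The same measure for the other tissues showed no such step. The 71 muscle-restricted genes summed to 133.9, 106.1 and 122.9 in kidney at 28, 18 and 10 °C, with 40, 30 and 48 of them above 0. The 14 brain-restricted genes summed to 20.1, 12.7 and 17.6, and the 10 gill-restricted ones to 62.4, 71 and 73.6. The 140 liver-restricted genes summed to 3275, 3060 and 2305. That list is not foreign to kidney throughout: its leading gene there, ENSONIG00000018676, had 537.8, 301.8 and 346.7 in kidney against 624.1, 97 and 70.3 in liver. The leading genes of the other lists in kidney were ENSONIG00000020308 of the brain list at 15.1, 6.66 and 13.6, ENSONIG00000003020 of the gill list at 53.4, 54.5 and 60.8, and ENSONIG00000007498 of the muscle list at 62, 52.2 and 60.5. No gene met the rule for spleen.

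The counts were also taken after 2.98% of each gene's level in heart at 10 °C was subtracted from kidney at 10 °C, a step chosen after the values were seen. As that share comes from the heart-restricted genes of the same library, it lowers those genes by construction. Of the 375 genes higher at 10 than at 28 °C, 50 then fell under 2-fold, and of the 51 genes that were 4-fold higher, 17 did. Among the 20 largest increases, 11 fell under 2-fold. The count of higher genes at 10 °C became 325 and that of lower genes 697. Whether heart RNA entered the 10 °C sample or these genes rose in kidney cells was not tested. Among the genes higher at 10 °C alone with a higher level in kidney than in heart at that temperature, ENSONIG00000009513 and ENSONIG00000013750 ranked first, chosen after the values were seen. The former had 0, 0 and 11 in RPKM at 28, 18 and 10 °C, from 0, 0 and 40 reads. By its 95% counting interval it was at least 4.07-fold higher at 10 than at 28 °C. The latter had 0.481, 0.695 and 7.56, from 1, 1 and 40 reads, a ratio of 15.7 to 28 °C with a counting interval of 2.66 to 636. Both genes met the RPKM minimum in kidney at 10 °C alone, so that choice partly set their being higher there.

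A single gene reshaped the 10 °C library. ENSONIG00000002856 had an RPKM of 130.3 at 28 °C, 369.4 at 18 °C and 35414 at 10 °C in kidney, from 1390, 2727 and 961318 reads. It took 0.154%, 0.489% and 31.6% of the reads on genes, and its level at 10 °C was 272-fold above 28 °C (258 to 287) and 95.9-fold above 18 °C (92.3 to 99.6). It belongs to the class higher at both, as its level at 18 °C was 2.83-fold above 28 °C (2.66 to 3.03). As a share of summed RPKM it held 22.2% at 10 °C. The 10 genes with the most reads took 12.1%, 7.78% and 37.8% of reads at 28, 18 and 10 °C, and the first 100 took 30.2%, 26.6% and 50.1%.

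The gene was abundant in other tissues too. Muscle had an RPKM of 76836 at 28 °C, 34767 at 18 °C and 268825 at 10 °C, and gill had 7727, 14928 and 15670. Brain had 3.02, 3.23 and 1070 at 28, 18 and 10 °C, heart 480.4, 8.02 and 5584, and spleen 2.56, 2.47 and 310.8. Liver stayed between 1113 and 1506. By RPKM, kidney at 10 °C stood above every library outside muscle. RPKM and share of reads rank these libraries differently. The library constant behind RPKM was 2.43 per read on genes in kidney at 10 °C, and 0.568 to 1.1 in muscle. By share of reads on genes, muscle had 31% at 28 °C, 13.3% at 18 °C and 56.1% at 10 °C, against 31.6% in kidney at 10 °C.

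**Figure D3:**
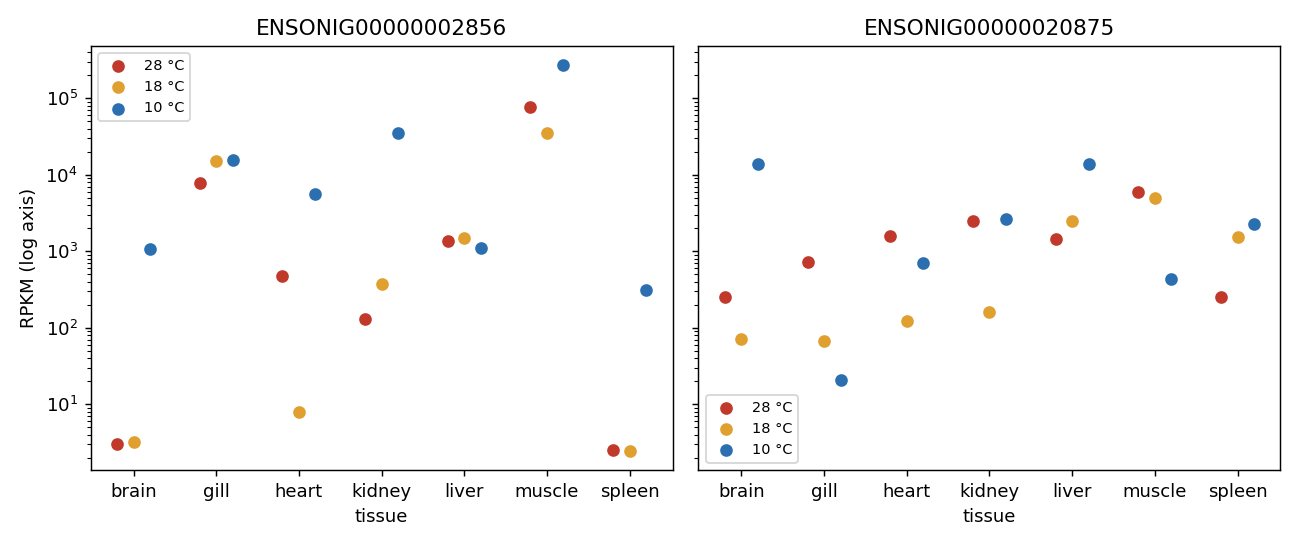
RPKM (log axis) of ENSONIG00000002856, which took the most reads in kidney at 10 °C, and ENSONIG00000020875, which took the most at 28 °C, in each of the 21 libraries, coloured by temperature. In kidney the first stands at 35414 at 10 °C against 130.3 at 28 °C, and the second at 160.7 at 18 °C against 2489 and 2609 at 28 and 10 °C.

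In kidney at 18 °C the gene with the most reads was ENSONIG00000015186, with 1.96% of them. It was of like level in all 3 libraries, with an RPKM of 1708 at 28 °C, 2000 at 18 °C and 1412 at 10 °C, and it was also abundant in liver (1477 to 3533) and heart (839.7 to 1778).

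Short genes were lower more often than long ones, and at 10 °C they were also more often higher. Lengths implied by the RPKM values had a median of 1278 bp in the 281 genes lower at both temperatures and 1497 bp in those lower at 18 °C alone, against 2308 bp in the 66 genes higher at both and 2694 bp in the 3157 genes past 2-fold at neither temperature. In the shortest of 4 equal length groups of kidney genes (up to 1380 bp), 388 genes were lower and 82 higher at 18 °C, with a median difference of -0.55. In the longest group (3669 bp and more), 78 were lower and 115 higher, with a median of 0.16. At 10 °C, 313 genes were lower and 136 higher in the shortest group, with a median of -0.25, and 64 were lower and 68 higher in the longest, with a median of 0.06. The part of length in these classes was not tested, but with the trend over length removed 342 genes were higher and 680 lower at 18 °C, and 423 higher and 599 lower at 10 °C.

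Genes past 2-fold were found in each range of level. A gene with a mean under 5 still had to reach 5 in a kidney library, so its share past 2-fold is partly set by that minimum. Among genes with a mean kidney RPKM of 100 or more, 17 of 186 were higher and 39 lower at 18 °C, and 10 were higher and 32 lower at 10 °C. Among genes with a mean under 5, 82 of 1222 were higher and 229 lower at 18 °C, and 163 were higher and 182 lower at 10 °C. Lower genes outnumbered higher ones in each of the 4 ranges of level at both temperatures.

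Fewer genes were past 2-fold in kidney than in most other tissues. Of each tissue's own genes, chosen by the same RPKM minimum, 23.2% were past 2-fold in kidney at 18 against 28 °C, where brain had 4.16%, spleen 30.1%, muscle 33.8%, gill 34.7%, heart 54.3% and liver 62.2%. At 10 against 28 °C kidney had 20.8%, heart 15.1%, muscle 29.5%, gill 35.5%, spleen 41%, brain 51.4% and liver 62.1%. Depth differed between tissues: at 28 and 10 °C the median detected gene had 6 and 5 reads in liver and 5 and 5 in muscle. In kidney it had 15 and 40. With at least 20 reads in the higher library, the shares at 10 °C were 18.7% in kidney, 15.6% in muscle and 44.1% in liver. The part of depth in these shares was not tested. The 10 and 18 °C libraries differed at 25.4% of kidney genes, more than either differed from 28 °C. The same held in heart (56%) and muscle (40.4%), and not in brain (50%), gill (7.42%), liver (22.1%) or spleen (15.2%). Genes higher at both cold temperatures made up 1.33% in kidney, between brain (0.935%) and heart (2.31%), with muscle at 4.89%, spleen at 11.1%, gill at 11.5% and liver at 15.2%. Genes lower at both made up 5.67% in kidney, the middle of the 7 tissues, with brain at 0.782%, heart at 3.61% and muscle at 5.35% below it and spleen at 10.8%, gill at 14.2% and liver at 34.8% above it. An exact permutation of 1 tissue against 6 could not reach p < 0.05, so none of these differences was tested.

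**Figure D4:**
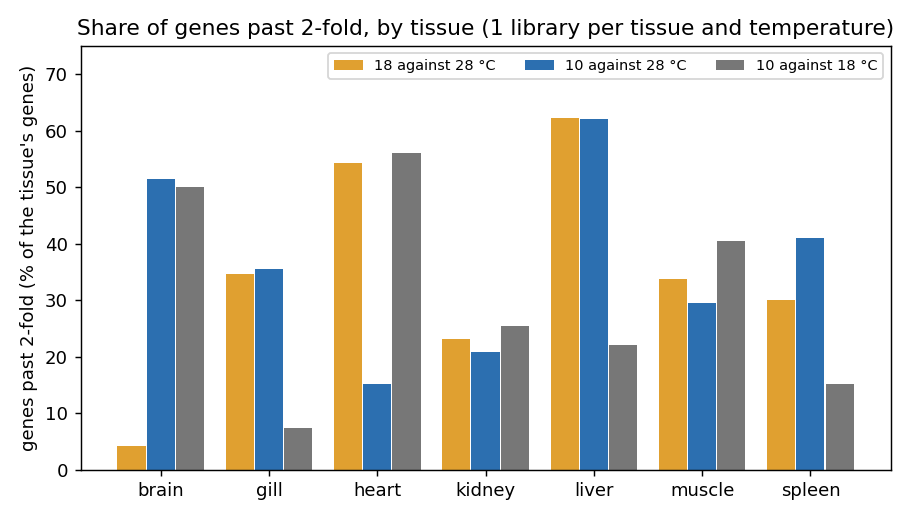
Percent of each tissue's genes past 2-fold on log2(RPKM + 1) in each pair of temperatures, from 1 library per tissue and temperature. Depth differs between the libraries. Kidney has 23.2%, 20.8% and 25.4% for 18 against 28 °C, 10 against 28 °C and 10 against 18 °C, and is second lowest to brain at 18 °C and to heart at 10 °C.

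The genes lower in kidney at both temperatures were also low in cold liver. Of the 281, 170 were present in liver, where their median difference was -1.82 at 18 °C and -2 at 10 °C. All kidney genes present in liver had medians of -0.28 and -0.33. Genes lower in kidney at 10 °C alone had liver medians of -1.56 and -1.89, and those lower at 18 °C alone had -0.5 and -0.42. In heart the shared lower genes went the other way at 18 °C, with a median of 0.9 against 0.37 for all kidney genes there, and had -0.43 at 10 °C against -0.12. In brain they had -0.15 at 18 °C and -1.08 at 10 °C, against 0.09 and -0.49. In gill they had 0.05 and -0.04, in muscle -0.71 and -0.08, and in spleen -0.18 and -0.35.

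**Figure D5:**
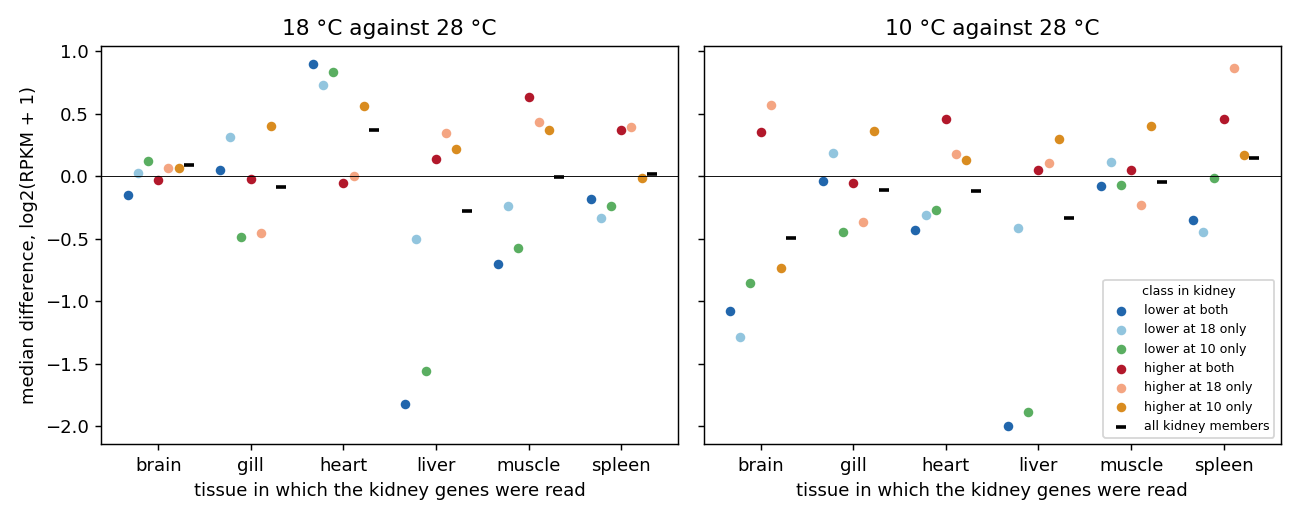
Median difference from 28 °C on log2(RPKM + 1) of each kidney class in the other 6 tissues, at 18 °C (left) and 10 °C (right), over class members that are also present in the tissue. Black marks give all kidney genes. Genes lower at both temperatures in kidney have medians of -1.82 and -2 in liver.

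A minority of the shared kidney changes was found in at least 3 of the other tissues. Of the 281 genes lower at both, 31 (11%) were at least 2-fold lower in at least 3 of the other 6 tissues at 18 °C, where 4.7% of all kidney genes were, and 57 (20.3%) at 10 °C, where 9.64% were. Of the 66 genes higher at both, 4 (6.06%) were higher in at least 3 other tissues at 18 °C, against 2.52% of all kidney genes, and 9 (13.6%) at 10 °C, against 4.42%. In none of the other tissues were 76 of the lower genes (27%) at least 2-fold lower at 18 °C and 71 (25.3%) at 10 °C, against 42.3% and 39.1% of all kidney genes. Presence in the other tissue was not required here, and a gene near 0 there cannot be 2-fold lower on this scale. Of the 281, between 111 (gill) and 170 (liver) were present in each other tissue.

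Whether the kidney difference stood apart from the other 6 tissues was tested gene by gene with limma on 7 within-tissue differences, with Benjamini-Hochberg adjustment over all 4956 genes. The residual spread is that between tissues and not between fish. Where a gene's difference is 0 in all 6 other tissues, its spread in the fit is borrowed from the other genes. At 10 against 28 °C, 37 genes passed an adjusted p of 0.05 (0.747%), 12 higher and 25 lower in kidney than elsewhere. At 18 against 28 °C, 19 passed (0.383%), 1 higher and 18 lower, and with the mean of 18 and 10 °C against 28 °C, 23 passed (0.464%), 1 higher and 22 lower. The genes called were nearly all kidney genes that the other tissues hardly express: 34 of the 37 and 18 of the 19 had a mean RPKM under 1 over the other 18 libraries, as 373 of all 4956 genes did. For such a gene the spread elsewhere is close to 0, and the error of the kidney libraries themselves is not in the fit. Because the RPKM minimum was set on kidney, it partly sets the direction of genes that met it at 1 temperature alone. Among the 1463 genes present in every tissue, 0 passed in each of the 3 comparisons, with 3, 19 and 2 at an unadjusted p under 0.05, and a limma-voom fit to the recovered counts of reads called 0 genes in each, with a smallest adjusted p of 0.184 and 99, 58 and 78 genes at an unadjusted p under 0.05. Without liver, the counts were 62, 47 and 53.

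The named genes of this comparison show its basis. ENSONIG00000016605 was higher in kidney in all 3 comparisons and had 0 reads in every library of the other tissues. Its kidney RPKM was 1.18 at 28 °C, 5.96 at 18 °C and 10.2 at 10 °C, from 2, 7 and 44 reads. On the log2 scale it was 2.36 above the other tissues at 10 °C and 1.68 above them at 18 °C. The difference in every other tissue was 0, so the error in the fit does not come from this gene. The counting interval of its ratio at 18 against 28 °C, 0.963 to 49.9, includes 1. ENSONIG00000015620, with 51, 25 and 420 reads and an RPKM of 4.19, 2.97 and 13.6, was higher at 10 °C by 1.5. It met the RPKM minimum in kidney at 10 °C alone, and ENSONIG00000016605 met it at 18 and 10 °C and not at 28 °C. That choice therefore partly set their being higher in the cold.

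Among the lower genes at 10 °C, ENSONIG00000014680 had 10.6 at 28 °C, 1.07 at 18 °C and 1.22 at 10 °C, from 72, 5 and 21 reads. Its difference from the other tissues was -2.39. ENSONIG00000002127 had 12.8, 0.636 and 2.25, from 29, 1 and 13 reads, with -2.08. Both genes met the RPKM minimum in kidney at 28 °C alone, so that choice partly set their being lower in the cold. At 18 °C, ENSONIG00000007723 had 43, 0 and 32 reads, and an RPKM of 34.3, 0 and 10, with -5.14. By its 95% counting interval it was at least 7.73-fold lower at 18 than at 28 °C. ENSONIG00000004757 had 13.8, 1.25 and 11.1, from 48, 3 and 98 reads, with -2.72. Both genes were at 0 in all 18 other libraries, so the error in the fit does not come from them. For the mean of both cold temperatures, ENSONIG00000013795 had 34.2, 5.36 and 11, with -2 ± 0.196 (limma adjusted p = 0.00489). ENSONIG00000010299 at 18 °C and ENSONIG00000013850 for the mean ranked second among the higher genes and did not pass (limma adjusted p = 0.19 and 0.0916). Over the alternatives run, the adjusted p of the genes that passed ranged from 4.02e-07 to 1.

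Genes richest in kidney were more often lower than higher in the cold, as were kidney genes with an RPKM of at least 20. To keep the choice apart from the contrast, the list for 10 against 28 °C was taken from the 18 °C libraries, as genes with an RPKM of at least 20 in kidney and 5-fold above every other tissue. Of these 108 genes, 8 were higher (7.41%) and 22 lower (20.4%) at 10 °C, where 13.2% of all kidney genes were lower. Of kidney genes with an RPKM of at least 20 in any kidney library, 16.7% were lower. That minimum, like that of 5 for all kidney genes, could be met at 28 °C alone. Neither set was therefore kept apart from either contrast, and that choice partly sets its share of lower genes. Whether the lists differ from these sets was not tested. The median difference of the list was -0.29, against -0.06 for all kidney genes and -0.15 for those with an RPKM of at least 20. At 10-fold in place of 5-fold, 15.5% of 71 genes were lower. The list for 18 against 28 °C, taken from the 10 °C libraries, held 138 genes, of which 9 were higher (6.52%) and 36 lower (26.1%). Of all kidney genes 16.3% were lower there, and of those with an RPKM of at least 20, 22.2%. Its median was -0.37, against -0.15 for all kidney genes and -0.25 for those with an RPKM of at least 20. At 10-fold, 24% of 104 genes were lower. The 2 lists at 5-fold share 83 genes, which is 76.9% of the first and 60.1% of the second. The summed RPKM of the first list was 10457 at 28 °C and 9161 at 10 °C, and that of the second was 13070 at 28 °C and 10725 at 18 °C. All genes summed to 158134, 119849 and 159319 at 28, 18 and 10 °C. By share of reads, the second list was level, with 9.69% at 28 °C and 9.68% at 18 °C. The first held 7.44% at 28 °C and 5.47% at 10 °C, where ENSONIG00000002856 alone held 31.6%.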

How the data were processed

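RNA was extracted with Trizol and libraries were made with the Illumina TruSeq RNA kit, per the labels' protocols. The authors deposited 1 RPKM value per gene and library, per the file headers. Per the submitters' processing notes, the tools included HTSeq, TopHat and Bowtie. No version, build or annotation is given in the sources used here. Each RPKM value was resolved into whole reads, gene length and a library constant for 17097 of 17098 genes (100% of values whole within 1e-06 reads), tested on simulated data. The recovered reads served for depth, shares and exact 95% intervals of ratios, which cover counting error only. The library constant per read on genes differed between tissues, so RPKM values of different tissues do not compare as shares of reads. The deposited RPKM values were compared as log2(RPKM + 1), with a pseudocount of 1 and a threshold of 2-fold. Within kidney no test was possible. A count test planned for count files was replaced, since the files hold RPKM, by limma (version 3.58.1, under R 4.3.3) with its trend option and 5 residual degrees of freedom. It was tested on simulated data, where genes unchanged but near 0 in the other tissues were also called, so its calls among such genes are not reliable. The other computations used Python 3.11.15.

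Named genes are the first 2 of each class with at least 30 reads in their highest kidney library. That library need not be among those compared: ENSONIG00000011409 had 14, 0 and 47 reads at 28, 18 and 10 °C. Classes for both temperatures were ranked by the smaller of the 2 differences. Classes for 1 temperature were ranked by its difference, where the other was under 0.5. The first 2 in each direction by p in each limma comparison are named too. So are the gene with the most reads in each kidney library and the leading gene of each tissue-restricted list. The members, lists and tests were chosen with earlier results of these data known.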

Additional observations from a re-analysis of the deposited data

Results flagged for a closer look

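The kidney difference stood apart from that of the other 6 tissues, by limma with Benjamini-Hochberg adjustment, in 37 genes at 10 against 28 °C, in 19 at 18 against 28 °C and in 23 for the mean of 18 and 10 °C against 28 °C. In all, 47 genes passed in at least 1 of the 3, and 9 passed at both 10 and 18 °C. Nearly all of these genes are hardly expressed outside kidney, with a mean RPKM under 1 elsewhere in 34 of the 37, 18 of the 19 and 22 of the 23, so the spread elsewhere is close to 0 and each kidney value rests on 1 library per temperature. Among the 1463 genes present in every tissue limma called 0 in each comparison, with 3, 19 and 2 at an unadjusted p under 0.05. No call was kept with limma-voom on the recovered reads. In simulated data limma also called unchanged genes near 0 in the other tissues, so calls among such genes are not reliable. The RPKM minimum, set on kidney, also partly sets the direction of genes that met it at 1 temperature alone.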

How the results depend on the processing

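Lower genes outnumbered higher ones at 18 and at 10 °C under every scaling, filter, pseudocount and threshold run. Of the alternatives to counts and shares, 137 stayed near the reported value and 97 did not; the latter follow, and their cause was not tested. The 1 library per temperature and the depth of the 18 °C library limit what counts can show.

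Genes higher and lower at 18 °C, then higher and lower at 10 °C, numbered 108, 359, 116 and 299 with a pseudocount of 5. With an RPKM of at least 20 they numbered 106, 280, 83 and 210, out of 1259 genes in place of 4956. Lower genes were 22.2% of the 1259 at 18 °C and 16.7% at 10 °C, against 16.3% and 13.2% of the 4956. An RPKM of at least 1 gave 1406 lower at 18 °C, and 754 higher and 1240 lower at 10 °C, out of 11194 genes. Lower genes were 12.6% of the 11194 at 18 °C and 11.1% at 10 °C. The plain total of reads gave 537 higher at 18 °C, and 181 higher and 1210 lower at 10 °C. At 4-fold the 4 counts were 11, 137, 51 and 118.

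Genes higher at both, lower at both, higher and lower at 18 °C alone, and higher and lower at 10 °C alone, numbered 8, 120, 95, 237, 106 and 174 with a pseudocount of 5. They numbered 14, 114, 86, 161, 64 and 90 of the 1259 genes with an RPKM of at least 20, and 0, 35, 11, 102, 51 and 83 at 4-fold. An RPKM of at least 1 (11194 genes) gave 100 higher and 464 lower at both, 917 lower at 18 °C alone, and 629 higher and 760 lower at 10 °C alone. Genes higher at both numbered 125 with a pseudocount of 0.1 and 106 after median-centring. The plain total of reads gave 431 higher and 306 lower at 18 °C alone, and 112 higher and 804 lower at 10 °C alone. Genes higher at 18 and lower at 10 °C numbered 5 with a pseudocount of 5, 30 with 0.1, 6 with an RPKM of at least 20, 53 with the plain total and 0 at 4-fold. The opposite class numbered 2, 54 and 5 under the first 3 of these, 0 at 4-fold, 4 with at least 20 reads and 13 with an implied length of at least 500 bp, the last chosen after seeing the data.

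The share of kidney genes past 2-fold was 9.42% at 18 °C and 8.37% at 10 °C with a pseudocount of 5, 19.7% and 18.7% with at least 20 reads, and 20.6% at 18 °C with the length trend removed. Kidney was second lowest of the tissues in each setting, except with at least 20 reads at 10 °C, where muscle (15.6%) was also lower.

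Genes whose kidney difference stood apart, at 10 °C, at 18 °C and for the mean of both, numbered 156, 136 and 133 with a pseudocount of 5, and 1, 3 and 1 with 0.1. They numbered 13, 2 and 6 with the length trend removed, 62, 47 and 53 without liver, and 65, 49 and 44 without brain, heart and liver. Among genes present in every tissue, and with limma-voom, 0 passed. At 18 °C, 12 passed without muscle and 11 without spleen. For the mean, 13 passed without spleen, 13 after median-centring and 15 with an RPKM of at least 1. A quasi-likelihood count test that had been planned was not run; limma-voom was fitted to the reads recovered from the RPKM values in its place. No paired analysis was possible because the labels number no replicates, apart from pairing by tissue, which the limma comparison already uses.

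The summed RPKM of tissue-restricted genes in kidney at 10 °C, with 20-fold in place of 10-fold, was 3.01 for brain, 12.8 for gill and 79.2 for heart. Without the gene highest in kidney it was 3.92 for brain, 12.8 for gill, 221.9 for heart and 62.4 for muscle. The leading gene of kidney at 10 °C held 22.2% of summed RPKM. A heart list chosen on the 28 and 18 °C libraries after seeing the data held 16 genes, at a median of 3.14% of heart in kidney at 10 °C.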
